A study of Mus musculus with 26 samples.

Results

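The replication-dependent histone genes of the mouse were followed here through Promoter Capture Hi-C (PCHi-C) and RNA-seq. Members were all gene symbols that start with Hist1h, Hist2h, Hist3h or Hist4h. They name 31 of the 19022 baited restriction fragments found in the 3 PCHi-C lists and 31 of the 15646 genes in the RNA table, and the same 31 names appear in both. The reference annotation GENCODE M21 holds 70 genes with such symbols, of which 67 are protein coding. The bait names give 1 gene per fragment, but a fragment can hold up to 3 histone genes, and the start of 52 of the 70 genes lies in a member bait. The start of 17 others lies in no bait, and that of Hist1h4d lies in a bait named Gm17658. Among the 17 is Hist1h4b, which starts 12 bp outside the bait of its name, so that this bait holds no histone gene. A contact of a histone bait is therefore a contact of a fragment, not of a single histone promoter.

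Histone proteins package DNA into nucleosomes. The core histones H2A, H2B, H3 and H4 form the nucleosome particle and the linker histone H1 binds the DNA between particles. The replication-dependent genes that encode most of this protein are short, mostly lack introns, lie in clusters on a few chromosomes and are transcribed mainly in S phase at nuclear histone locus bodies. Their mRNAs normally end in a stem-loop that binds the protein SLBP in place of a poly(A) tail, so that libraries made from poly(A) RNA see only a minor part of them.

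The study compared 3 pluripotent cell types. WT ESCs were E14Tg2a cells (129P2/OlaHsd), and Nanog-/- ESCs were RCNβH-B(t) cells, 1 line derived from E14Tg2a that was kept under hygromycin while it was expanded; both grew on gelatin with serum and LIF. EpiSCs came from 129S2 embryos and grew on fibronectin in N2B27 with Activin A and bFGF, so that cell type, strain and culture cannot be told apart between EpiSCs and ESCs. The strain field of the labels gives C57BL/6 for all samples, in contrast to the 129 lines of the culture protocol. The labels list 12 PCHi-C lanes (5 for WT ESCs, 2 for EpiSCs, 5 for the knockout line) and 3, 4 and 3 RNA-seq samples, but the deposited files hold 1 combined contact list and 1 median RPKM per cell type. No replicate error can be given, no difference between cell types was tested, and intervals below cover counting error only.

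The cell types were checked first. Median RPKM of Nanog was 418 for WT ESCs, 361 for EpiSCs and 22.3 for the Nanog-/- line. Klf4, a naive factor, stood at 93.0, 10.9 and 31.7 RPKM, and Fgf5, a primed epiblast gene, at 4.74, 219 and 1.11 RPKM in the same order. The 3 lists hold 100492, 87369 and 74931 different pairs of fragments with 2177284, 1651286 and 1438555 reads. A pair is listed when its CHiCAGO score, which weighs its reads against the background at that distance, is at least 5.

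The 31 baits fall into groups when baits less than 100 kb apart are joined. The Hist2 group on chromosome 3 (chr3:96219175-96279539, GRCm38) has 5 baits. The Hist1 locus on chromosome 13 holds group 1 (chr13:21715488-21784673, 4 baits), group 2 (chr13:22031510-22043145, 2 baits) and group 3 (chr13:23517430-23766053, 17 baits). A gap of 247 kb separates groups 1 and 2, and 1474 kb separate groups 2 and 3. Hist3h2ba on chromosome 11, the testis gene Hist1h2ba beyond group 3, and Hist1h2al, annotated as a processed pseudogene far from the locus, stand alone. All 31 fragments end at HindIII sites in GRCm38, with a median length of 4106 bp. Hist1h2be alone of the 31 has a spliced transcript in the annotation.

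The sequences upstream of 7 of the genes are shown because their baits form the contacts across the long gap (Hist1h4i, Hist1h4f, Hist1h2ae, Hist1h2bl and Hist1h1b) or because their RNA was the highest (Hist1h1c and Hist3h2ba). Each gives the 180 bases before the RefSeq start in GRCm38.p6, 5′ to 3′ on the strand of the gene. Capitals mark the letters TATAAA (found in TATA boxes), CCAAT (the CCAAT box) and TTTGCAT (core of the octamer bound by OCT1). Their reverse complements are marked too. Matches are marked at any distance from the start, so a marked TATAAA is not shown to be a TATA box. The TATAAA and TTTGCAT matches printed for Hist1h2ae lie nearer the start of Hist1h2bg on the other strand. Related letters such as tatata, present in Hist1h1c and Hist1h4f, are not marked. The H4 promoters Hist1h4i and Hist1h4f are chr13:22041363-22041542 and chr13:23551669-23551848 on the minus strand. The H2A promoter Hist1h2ae is chr13:23571221-23571400, the H2B promoter Hist1h2bl is chr13:21716184-21716363 and the H1 promoter Hist1h1b is chr13:21780626-21780805, all on the minus strand. The H1 promoter Hist1h1c is chr13:23738627-23738806 and the H2B promoter Hist3h2ba is chr11:58948731-58948910, both on the plus strand.
Hist1h4i: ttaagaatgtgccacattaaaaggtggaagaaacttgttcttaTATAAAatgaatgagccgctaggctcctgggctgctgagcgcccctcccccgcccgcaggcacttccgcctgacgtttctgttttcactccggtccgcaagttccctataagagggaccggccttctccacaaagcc
Hist1h4f: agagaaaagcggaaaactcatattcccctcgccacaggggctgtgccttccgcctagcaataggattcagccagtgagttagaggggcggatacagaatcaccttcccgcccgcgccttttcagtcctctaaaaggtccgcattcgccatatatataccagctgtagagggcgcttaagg
Hist1h2ae: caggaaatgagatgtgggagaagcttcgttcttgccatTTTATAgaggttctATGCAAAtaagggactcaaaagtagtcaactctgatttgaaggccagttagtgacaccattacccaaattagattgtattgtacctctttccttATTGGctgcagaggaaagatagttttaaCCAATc
Hist1h2bl: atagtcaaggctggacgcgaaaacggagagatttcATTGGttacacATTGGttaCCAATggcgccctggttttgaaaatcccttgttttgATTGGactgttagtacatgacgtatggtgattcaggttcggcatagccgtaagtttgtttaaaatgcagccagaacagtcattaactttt
Hist1h1b: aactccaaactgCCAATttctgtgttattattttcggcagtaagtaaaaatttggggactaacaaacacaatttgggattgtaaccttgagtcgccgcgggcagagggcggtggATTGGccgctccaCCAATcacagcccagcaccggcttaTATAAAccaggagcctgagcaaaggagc
Hist1h1c: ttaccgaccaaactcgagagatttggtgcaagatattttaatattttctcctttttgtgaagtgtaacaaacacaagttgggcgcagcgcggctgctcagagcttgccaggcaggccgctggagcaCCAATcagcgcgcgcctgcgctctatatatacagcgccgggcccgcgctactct
Hist3h2ba: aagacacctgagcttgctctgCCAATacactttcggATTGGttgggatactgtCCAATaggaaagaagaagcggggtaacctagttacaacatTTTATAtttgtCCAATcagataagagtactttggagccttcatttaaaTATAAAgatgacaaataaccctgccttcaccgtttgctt

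These letters were counted on both strands in the 250 bases before each RefSeq start, for which 62 of the 70 annotated histone genes and 29 of the 31 members were matched. Hist1h2al and Hist2h4 had no entry. CCAAT was found in 6 of 6 H1, 18 of 18 H2A, 17 of 17 H2B, 8 of 10 H3 and 3 of 12 H4 windows of protein-coding histone genes, against 33.8% of all 32851 windows. At least 2 CCAAT matches were present in 17 of 17 H2B and 17 of 18 H2A windows, but in 1 of 6 H1 and 1 of 12 H4 windows, against 10.1% of all windows. TTTGCAT was found in 7 of 18 H2A and 7 of 17 H2B windows, in 1 of 12 H4 windows, and in 0 of 6 H1 and 0 of 10 H3 windows, against 4.12% of all windows. TATAAA was found in 29 of the 63 histone windows and in 12.4% of all windows. The genes that name the baits of the contacts across the gap thus include Hist1h4i and Hist1h4f, which lack CCAAT in the bases shown. They also include H1, H2A and H2B genes whose promoters hold it. The Hist1h4i fragment also holds the start of Hist1h2ag, with 5 CCAAT matches in its window. The Hist1h4f fragment also holds the start of Hist1h1d, with 1 match. The contact of these fragments is therefore not one of H4 promoters alone. Windows of neighbours on opposite strands can overlap, as for Hist1h2ae and Hist1h2bg, so the same letters can count in both the H2A and the H2B class. Hist1h2be has more than 1 of the 17 H2B windows. The class counts are thus not independent. A match of letters is a description and does not show that a factor binds there.

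Histone baits held 243 contacts in the WT ESC list, 268 in the EpiSC list and 127 in the Nanog-/- ESC list. These were 0.242%, 0.307% and 0.169% of all listed pairs. Baits with a contact had a median of 8.5, 8 and 3 contacts when they carried a histone gene, whereas the median over all baits was 4 in each list. In WT ESCs 61 contacts joined a pair of histone baits, which is 25.1% of the 243 (Wilson 95% interval 20.1 to 30.9%). The EpiSC list held 57 such pairs (21.3%, 16.8 to 26.6%) and the Nanog-/- ESC list 27 (21.3%, 15.0 to 29.2%). Another 48, 28 and 29 contacts (19.8%, 10.4% and 22.8%) ended on a bait of another name. Among all listed pairs, 23.1%, 18.4% and 22.0% joined 2 baits of any name. That measure counts every bait, while the histone pairs count baits of the family only, so the shares are not like for like. When unbaited fragments and the bait Gm17658 are included, 38.7%, 39.6% and 37.0% of the contacts ended on a histone bait or another fragment with a histone gene. A fragment counts here when it overlaps the annotated span of a gene, and that of Hist1h2be is long (chr13:23583670-23621124). In EpiSCs, 42 contacts ended on unbaited fragments counted in this way. Among them 10 ended on chr13:23591376-23591557 and 5 on chr13:23591102-23591375, both within Hist1h2be, so this gene model raises the share.

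No contact of a histone bait joined 2 chromosomes. This was 0 of 243 in WT ESCs, which allows a share of up to 1.23%, 0 of 268 in EpiSCs (up to 1.12%) and 0 of 127 in Nanog-/- ESCs (up to 2.36%). Between 0.444% and 0.782% of all pairs in the 3 lists joined 2 chromosomes (0.782%, 0.444% and 0.462%), which lies below these limits. No contact between the Hist1, Hist2 and Hist3 loci was listed.

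Among pairs of histone baits, the contacts with the most reads lay between near neighbours in group 3. The baits Hist1h4f and Hist1h1d, with fragment midpoints 2.94 kb apart, were joined by 193, 169 and 110 reads in the WT ESC, EpiSC and Nanog-/- ESC lists, with scores of 31.87, 18.09 and 25.75. The start of Hist1h1d lies 1290 bp outside the bait of that name and within the Hist1h4f fragment, so this contact joins 2 fragments of the annotated Hist1h1d gene, with 0.739 kb between their edges. Hist1h2ae and Hist1h2bf (H2A and H2B) were joined at 5.55 kb by 126, 132 and 49 reads, and Hist1h2ac and Hist1h1t at 10.0 kb by 106, 73 and 47 reads. All 3 pairs were present in every list, with the fewest reads in the Nanog-/- ESC list.

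Other contacts within a group, most of them at longer range, had fewer reads, and some of these scored as high. Hist1h3e and Hist1h2bg, 10.6 kb apart, had the highest score of any histone pair in WT ESCs, 34.03 on 48 reads, against 9.64 on 22 reads in EpiSCs and 10.17 on 13 reads in Nanog-/- ESCs. In group 1, Hist1h2bl and Hist1h1b at 66.1 kb had 31 reads (score 33.3) in WT ESCs, 16 reads (15.98) in EpiSCs and 10 reads (13.28) in Nanog-/- ESCs. Hist1h4c and Hist1h1c at 40.4 kb had 25, 20 and 10 reads with scores of 23.87, 15.82 and 12.48. Hist1h4c and Hist1h2ab, 51.8 kb apart, had 13, 15 and 5 reads, and Hist1h2ae and Hist1h2ab at 181 kb had 9, 7 and 5 reads with scores of 15.54, 12.63 and 11.68.

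In the Hist2 group, 4, 3 and 4 of the 10 possible pairs were listed in WT ESCs, EpiSCs and Nanog-/- ESCs. Hist2h2ab and Hist2h2aa2, 18.5 kb apart, were joined by 30, 39 and 35 reads. Hist2h2aa1 and Hist2h4 at 19.9 kb had 28, 34 and 15 reads, and Hist2h2aa2 and Hist2h4 at 25.4 kb had 38 reads in WT ESCs and 18 in Nanog-/- ESCs and were not listed in EpiSCs. Unlike Hist1 groups 1 and 3, the Hist2 group held as many pairs in the Nanog-/- ESC list as in the WT ESC list.

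**Figure D1:**
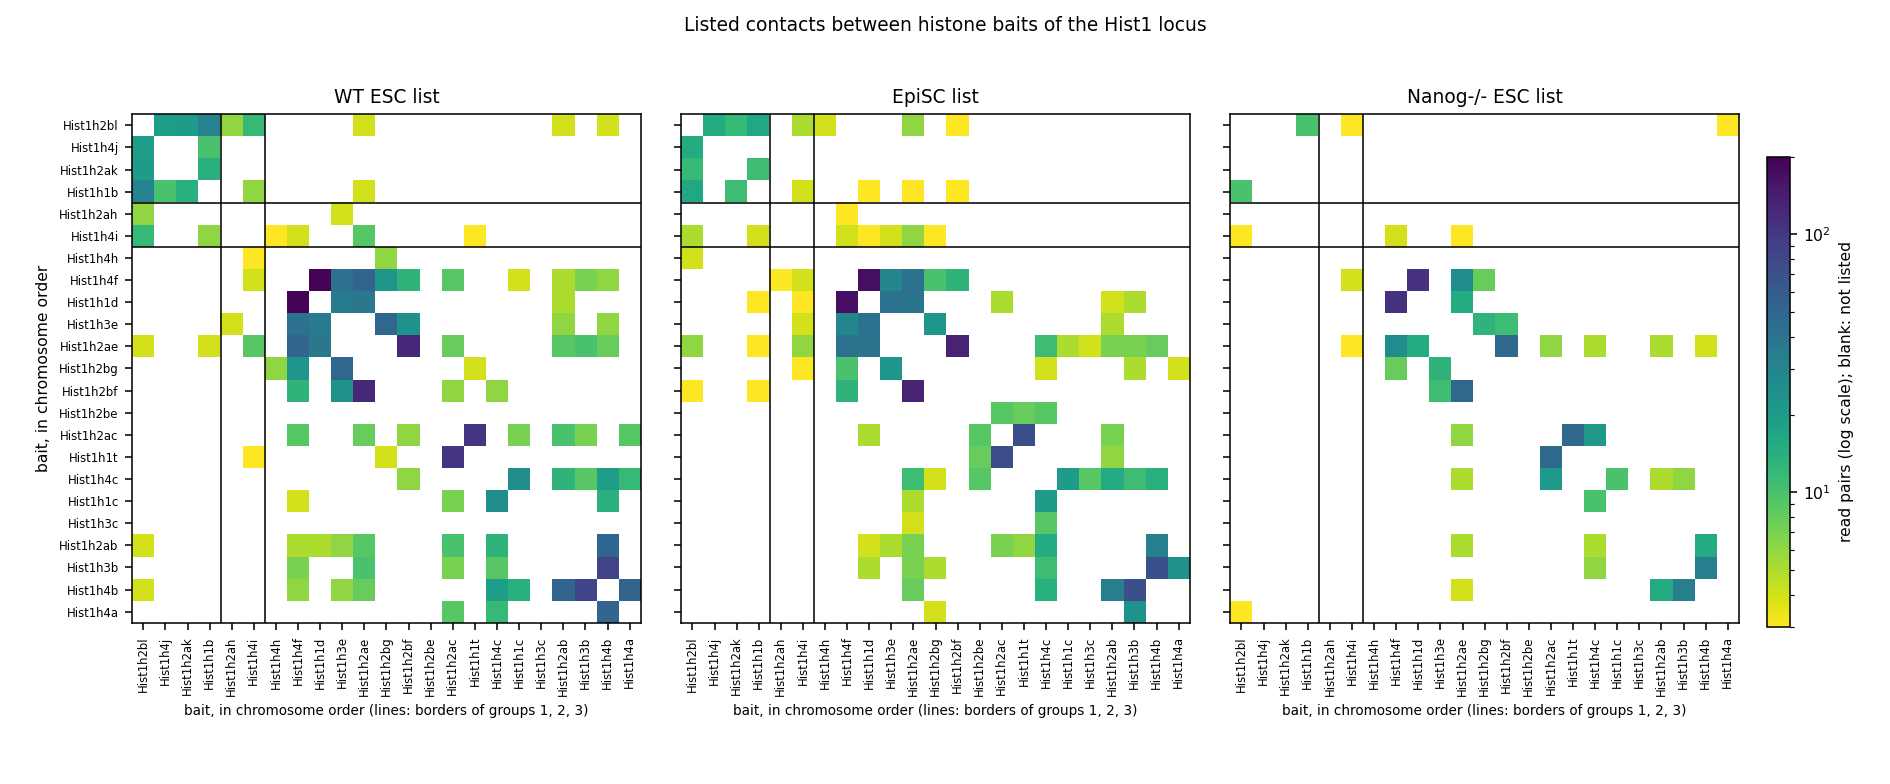
Contacts between the 23 histone baits of Hist1 groups 1 to 3, 1 panel per list, with baits in chromosome order on both axes, black lines at the borders of the groups and colour for the read pairs of a listed contact on a log scale. Of the possible pairs, 5, 4 and 1 of 6 are listed within group 1 and 40, 36 and 18 of 136 within group 3. Pale squares of 3 to 9 reads link group 3 to groups 1 and 2 across 1474 kb in all 3 panels.

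Across the groups of the Hist1 locus, 12 of 110 possible pairs of baits were listed in WT ESCs, and 14 and 4 in EpiSCs and Nanog-/- ESCs. Of these, 9, 12 and 3 joined group 3 with group 1 or 2 over distances of 1487 to 2046 kb. The pair with the highest score in WT ESCs was Hist1h4i in group 2 with Hist1h2ae in group 3, 1527 kb apart. It had 9 reads in WT ESCs (exact Poisson 95% interval 4.12 to 17.1, score 25.63), 6 in EpiSCs (2.20 to 13.1, score 14.13) and 3 in Nanog-/- ESCs (0.619 to 8.77, score 5.12), so the intervals overlap. Hist1h4i and Hist1h4f, 1510 kb apart, had 4 reads in each list, with scores of 8.43, 8.66 and 9.90.

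These were the only pairs across the long gap present in all 3 lists. Hist1h2bl and Hist1h2ae at 1852 kb had 4 reads in WT ESCs (score 7.28) and 6 in EpiSCs (14.72). Hist1h1b and Hist1h2ae at 1786 kb had 4 and 3 reads with scores of 9.41 and 5.89. Neither was listed in Nanog-/- ESCs. Hist1h2bl with Hist1h2ab (2034 kb, 4 reads, score 11.32) and with Hist1h4b (2039 kb, 4 reads, 8.23), Hist1h2ah with Hist1h3e (1527 kb, 4 reads, 7.66), and Hist1h4i with Hist1h4h (1487 kb, 3 reads, 5.26) and with Hist1h1t (1653 kb, 3 reads, 5.36) were listed in WT ESCs only. Another 8 pairs appeared in EpiSCs only, all of 3 or 4 reads. They joined Hist1h2bl with Hist1h4h and Hist1h2bf, Hist1h1b with Hist1h1d and Hist1h2bf, Hist1h2ah with Hist1h4f, and Hist1h4i with Hist1h1d, Hist1h3e and Hist1h2bg. Hist1h2bl with Hist1h4a, the longest of all at 2046 kb (3 reads, 6.31), was listed in Nanog-/- ESCs only. On 3 to 6 reads a pair can pass the score threshold in 1 list and miss it in another through counting error, so absence from a list is not shown to be a difference. With at least 10 reads required, 1, 0 and 0 pairs between groups remained listed.

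Over the shorter gap, Hist1h2bl and Hist1h4i at 325 kb were joined in all lists by 12, 5 and 3 reads with scores of 21.01, 7.06 and 5.05. Hist1h1b and Hist1h4i at 259 kb had 6 and 4 reads in WT ESCs and EpiSCs, and Hist1h2bl and Hist1h2ah had 6 reads in WT ESCs. Hist1h4i thus took part in pairs with group 1 and with group 3.

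Baits far apart are listed less often than near ones, so the possible pairs were counted by distance. Of the 108 possible pairs of histone baits 1000 to 2500 kb apart, 9 were listed in WT ESCs (8.33%, Wilson 95% interval 4.45 to 15.1%), 12 in EpiSCs (11.1%, 6.47 to 18.4%) and 3 in Nanog-/- ESCs (2.78%, 0.949 to 7.85%). Over all baits at that distance 0.0547%, 0.0432% and 0.0109% of 312810 possible pairs were listed. Pairs of a histone bait with a bait of another name were listed in 4, 3 and 0 of 1274 cases at that distance (0.314%, 0.235% and 0, with an upper 95% bound of 0.301% for the last). These pairs share baits and are not independent, so the intervals are too narrow as a measure of error.

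Over 250 to 1000 kb, 3, 2 and 1 of 16 possible histone pairs were listed, against 2.8%, 1.76% and 1.15% over all baits. Nearer pairs stood closer to the background. At up to 50 kb, 41.7%, 35.0% and 26.7% of 60 possible histone pairs were listed, against 32.2%, 25.4% and 33.4% over all baits. At 50 to 100 kb, 37.5%, 37.5% and 12.5% of 24 histone pairs were listed, against 22.9%, 16.7% and 19.4% over all baits and 3, 4 and 7 of 79 pairs of a histone bait with a bait of another name. At 100 to 250 kb the shares were 19.2%, 16.7% and 5.13% of 78 pairs, against 16.3%, 10.5% and 10.3%. In Nanog-/- ESCs the histone share was below that of all baits in each bin up to 250 kb, and in WT ESCs and EpiSCs it was above it, but all of these Wilson intervals except that of EpiSCs at 50 to 100 kb (21.2 to 57.3%) include the share of all baits.

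**Figure D2:**
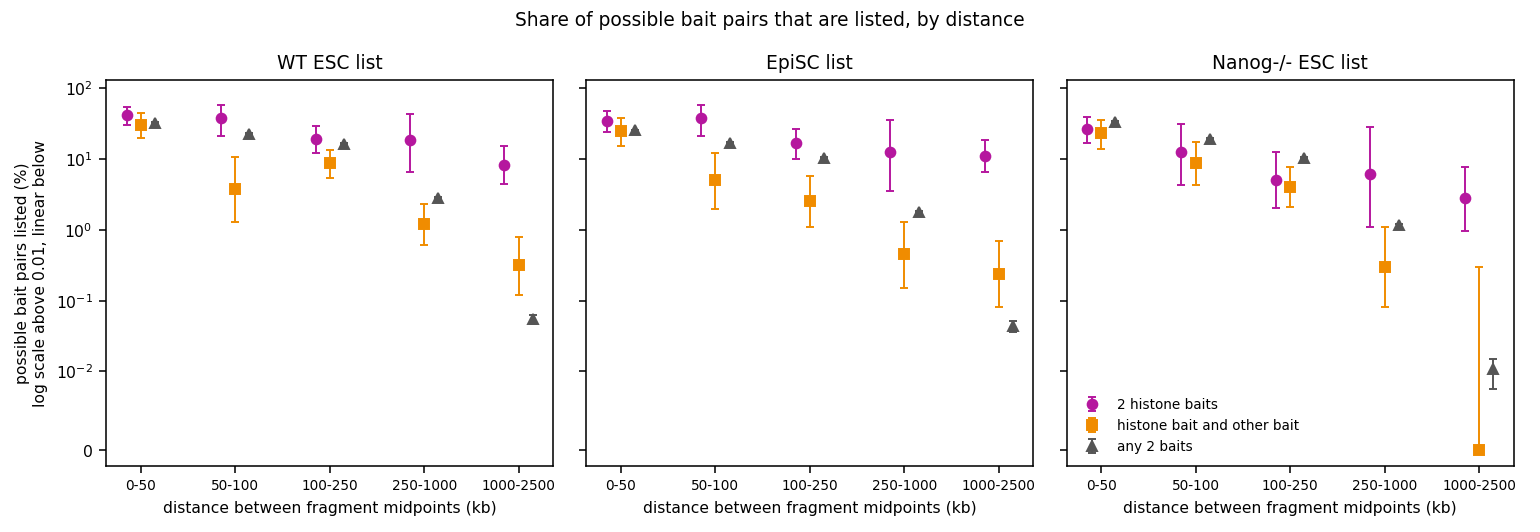
Percent of possible bait pairs that are listed (y axis, log above 0.01 and linear below) by distance between fragment midpoints in kb, 1 panel per list, for 2 histone baits, a histone bait with another bait, and any 2 baits, with Wilson 95% intervals as bars. The 3 kinds lie near each other up to 50 kb, and at 1000 to 2500 kb the pairs of 2 histone baits stand at 8.33%, 11.1% and 2.78% against 0.0547%, 0.0432% and 0.0109% for any 2 baits.

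In all, 13.2%, 17.2% and 3.15% of histone bait contacts spanned more than 800 kb, against 1.30%, 1.78% and 0.370% of all pairs within a chromosome in the same lists. These were 32, 46 and 4 contacts, of which 9, 12 and 3 joined 2 histone baits. Among histone pairs the shares over 800 kb were 14.8%, 21.1% and 11.1%, against 1.63%, 1.76% and 0.48% of pairs of 2 baits. The Nanog-/- ESC list had the lowest share at this range for histone baits and for all baits.

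Histone genes are near copies of each other, so shared sequence was measured beside these contacts. Of the 21 different pairs between groups, 10 joined fragments that share at least 1 stretch of 50 identical bases on either strand, up to 24.1% of the smaller fragment for Hist1h2bl with Hist1h2ah. Hist1h4i with Hist1h2ae shared 8.66% and Hist1h4i with Hist1h4f 4.29% of the smaller fragment. Among the 60 possible pairs of group 3 with groups 1 or 2 that share no such stretch, 4 were listed in WT ESCs (6.67%, 2.62 to 15.9%), 6 in EpiSCs (10.0%, 4.66 to 20.1%) and 1 in Nanog-/- ESCs (1.67%, 0.295 to 8.86%). Among the 42 pairs that do share one, 5 (11.9%, 5.19 to 25.0%), 6 (14.3%, 6.72 to 27.8%) and 2 (4.76%, 1.32 to 15.8%) were listed. The share was higher among the pairs with shared sequence in each list, with overlapping intervals, and the part of shared sequence in these contacts was not tested. How reads that map to several places were treated is not given in the sources used here.

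The baits of groups 1 and 2 had few partners in the long gap, while those of group 3 had 25, 13 and 18 contacts there. The gap holds 104 annotated genes, 70 of them with symbols of vomeronasal type 1 receptors (Vmn1r), pheromone receptors of sensory neurons. The 6 baits of groups 1 and 2 had 0 contacts with the first Mb of the gap in any list, and had 2, 6 and 0 contacts with the whole gap, while 12, 15 and 3 of their contact ends lay in group 3 on its far side. Seen from group 3, 6, 7 and 1 contacts of its baits ended in group 1 and 8, 10 and 2 in group 2. Another 13, 20 and 1 ended between groups 1 and 2, so many contacts across the gap ended outside both groups. None of the 299 possible pairs between a Hist1 group bait and 1 of the 13 Vmn1r baits in the gap was listed, while these Vmn1r baits had 31, 11 and 3 contacts of other kinds. Pairs of a histone bait with a bait of another name were also rarely listed, in 8, 3 and 2 of 668 cases at 250 to 1000 kb. At 1000 to 2500 kb they were listed in 4, 3 and 0 of 1274 cases. These cases include Vmn1r pairs and are not matched for distance, so a count of 0 in 299 is not shown to be a depletion.

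**Figure D3:**
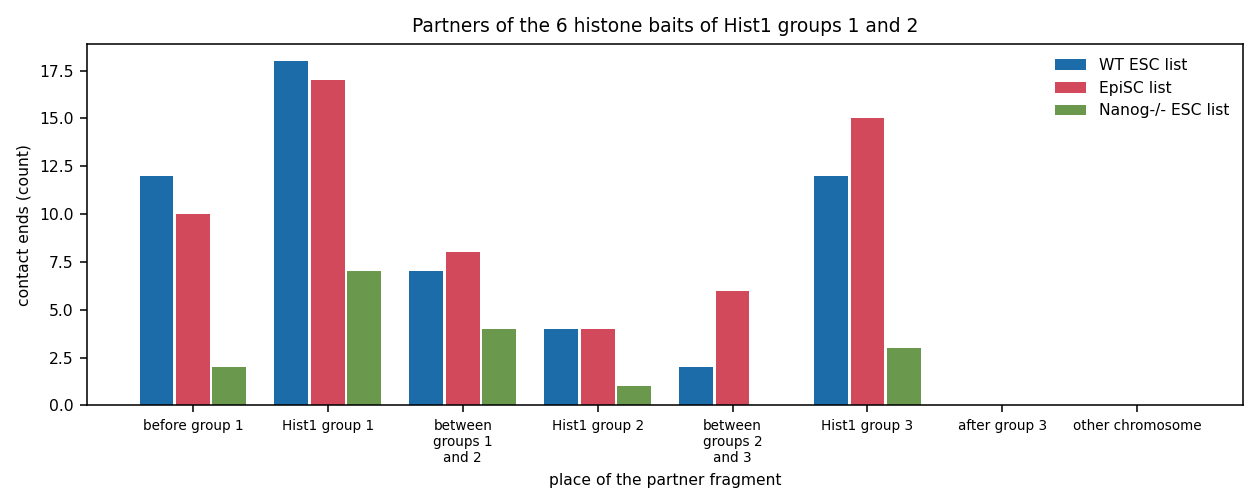
Number of contact ends (y axis) of the 6 histone baits of Hist1 groups 1 and 2 by the place of the partner fragment (x axis, in chromosome order), with 1 bar per list, and a pair within this set counted from each end. Group 3 receives 12, 15 and 3 ends, whereas the 1474 kb between groups 2 and 3 receive 2, 6 and 0.

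Among the 86 different histone pairs, 20 were in all 3 lists, 19 in 2 and 47 in 1. Of the 61 pairs in WT ESCs, 35 were also listed in EpiSCs (57.4%, 44.9 to 69.0%), against 39.6% of all pairs and 43.3% of all pairs of 2 baits. In Nanog-/- ESCs 23 of the 61 were also listed (37.7%, 26.6 to 50.3%), against 41.8% and 46.8%. The lower bound in EpiSCs lies just above the share of all pairs of 2 baits, pairs share baits, and histone pairs were nearer, so the shares are not matched for distance. With a gap of at least 10 kb between fragment edges, 52.9% were kept in EpiSCs. Of the 49 WT ESC pairs within a group, 29 and 20 were kept, and of the 12 between groups, 6 and 3. The median distance of histone pairs was 65.8 kb, 76.6 kb and 25.4 kb, and that of all pairs of 2 baits 129 kb, 114 kb and 83.8 kb.

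Other partners were mostly neighbours. The bait Gm17658, whose fragment holds Hist1h4d, was contacted by 11, 7 and 6 histone baits in the 3 lists, with up to 57, 48 and 19 reads. Abt1, which encodes a basal transcription activator and lies in the gap beside group 3, was contacted by 6, 1 and 4 histone baits. In EpiSCs the only histone partner of Abt1 was Hist1h4i, 1380 kb away on the far side of the gap, with 8 reads and a score of 20.81. In WT ESCs the strongest partner of Abt1 was Hist1h4h, 107 kb away, with 21 reads (score 17.26), and this contact had 14 reads (20.55) in Nanog-/- ESCs. Gm11274 and Hist1h2ak, 13.6 kb apart in group 1, had the highest score of any other partner in WT ESCs, 34.75 on 77 reads, with 52 reads in EpiSCs and 37 in Nanog-/- ESCs. The fragments chr13:23402903-23409191, which Hist1h4h contacted in WT ESCs (17 reads, score 19.05), chr13:23732868-23733995, which Hist1h4c contacted in EpiSCs (56 reads, score 27.90), and chr3:96328892-96334338, which Hist2h3b contacted in WT ESCs (29 reads, 17.93) and Nanog-/- ESCs (16 reads, 16.03), hold no annotated gene and were also among the highest scores. Hfe, a regulator of iron uptake within group 3, was contacted by 3, 2 and 3 histone baits. The bait of Zfp184, a zinc finger gene, was contacted by Hist1h2ah and Hist1h2bf in WT ESCs. In the Hist2 group, the splicing factor gene Sf3b4 was contacted by 1, 2 and 3 baits, and Hist2h3b contacted a bait named U1.123, after the U1 snRNA, with 64, 39 and 39 reads and scores of 16.95, 10.29 and 20.94. The baits Mir1896 in WT ESCs, U1.52 in EpiSCs and Sv2a, a synaptic vesicle gene, in Nanog-/- ESCs were each met by 2 histone baits.

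RNA of the histone genes was low in all 3 cell types, as measured by medians of RPKM from poly(A) RNA. Summed over the 31 genes it was 94.3, 81.1 and 89.6 RPKM for WT ESCs, EpiSCs and Nanog-/- ESCs, which is 0.0181%, 0.0113% and 0.0170% of the sum over all genes. The median histone gene stood at 2.57, 0.782 and 1.72 RPKM, and the median of all genes at 3.93, 8.58 and 4.23 RPKM. At least 1 RPKM was reached by 26 of 31 histone genes for WT ESCs (83.9%), by 11 for EpiSCs (35.5%) and by 23 for Nanog-/- ESCs (74.2%), against 62.3%, 65.6% and 63.4% of all genes. In EpiSCs 24 of 31 histone genes had a lower RPKM than in WT ESCs, which held for 20.8% of all genes.

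Only 3 histone genes reached 10 RPKM in any cell type. The H2B gene Hist3h2ba was the highest in EpiSCs, at 23.8 RPKM, against 10.6 RPKM in WT ESCs and 8.63 in Nanog-/- ESCs. The H1 gene Hist1h1c stood at 9.24, 16.7 and 16.6 RPKM. The H4 gene Hist1h4i stood at 5.94, 4.56 and 12.3 RPKM, highest in the Nanog-/- ESCs. Its bait, which also holds Hist1h2ag, had 10, 14 and 3 contacts in WT ESCs, EpiSCs and Nanog-/- ESCs. The median over histone baits with a contact was 8.5, 8 and 3, so few contacts in Nanog-/- ESCs are not particular to this bait. A relation of contacts to RNA was not tested. The H1 gene Hist1h1b followed at 6.93, 7.65 and 3.24 RPKM.

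RPKM values as a whole were higher in EpiSCs. Over the 9077 genes at 1 RPKM or more in both, the median difference on the log2(RPKM + 1) scale was 0.85 against WT ESCs, while it was 0.06 for Nanog-/- ESCs over 9496 genes. Differences below are relative to these medians unless stated, and a difference counts as 2-fold at 1 on this scale. The added 1 understates changes of low genes. Centring takes 0.85 from every EpiSC difference, also from genes near 0 RPKM, so low genes can be called lower on small changes. Hist1h1t, at 0.270 RPKM in WT ESCs and 0.108 in EpiSCs, differed by -1.05, or by -0.20 without centring. Relative to the median, 21 of 31 histone genes were lower in EpiSCs by at least 2-fold and 0 were higher, against 14.6% of all genes lower and 9.86% higher. Without centring, 9 of 31 were lower and 1, Hist3h2ba, was higher, against 5.78% and 30.1% of all genes. Of the genes between 1 RPKM and 10.6 RPKM in WT ESCs, the range of the histone genes that reached 1 RPKM, 20.1% were lower and 21.5% higher with centring, and 10.4% and 51.3% without. The median difference of the histone genes was -1.31, or -0.46 without centring, and that of all genes was -0.40, or 0.46 without centring.

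By class, 6 of 9 H2A, 5 of 6 H2B, 6 of 8 H4, 2 of 4 H3 and 2 of 4 H1 genes were lower by at least 2-fold in EpiSCs. The H2A gene Hist1h2ah stood at 3.99 RPKM in WT ESCs and 0.730 in EpiSCs, a difference of -2.38, or -1.53 without centring. The H2B genes Hist1h2bg and Hist1h2bf stood at 3.41 and 2.67 RPKM in WT ESCs and at 0.861 and 0.518 RPKM in EpiSCs. The H3 gene Hist2h3b stood at 3.01 and 0.290 RPKM, and the H2A gene Hist1h2ab at 3.04 and 0.853 RPKM. The testis H2B gene Hist1h2ba stood at 1.53 and 0.126 RPKM. The H4 gene Hist1h4a, at 1.88 and 0.438 RPKM, completes the genes with a value above 0 that were lower by 2-fold without centring as well.

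Hist2h2aa1 and Hist2h2aa2, near-identical H2A copies, were at 5.10 and 3.48 RPKM in WT ESCs and 4.21 and 4.30 in Nanog-/- ESCs and were listed at 0 in EpiSCs, so no fold is given. Every 50-base stretch of their transcripts occurs in transcripts of other genes, and reads may be assigned to copies or dropped. Without the genes listed at 0, the median difference over 29 genes was -1.17.

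The remaining genes lower by 2-fold relative to the median were within 2-fold without centring. They were Hist1h1d, Hist1h1t, Hist1h2ae, Hist1h2al, Hist1h2be, Hist1h2bl, Hist1h3b, Hist1h4f, Hist1h4h, Hist1h4i, Hist1h4j and Hist2h4, with differences of -0.90 to -0.20 without centring. For these the call rests on the general shift of RPKM in EpiSCs.

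In Nanog-/- ESCs no histone gene differed from WT ESCs by 2-fold, with or without centring, against 1.56% of all genes lower and 1.47% higher with centring, and 1.35% and 1.69% without. Among genes of the same RPKM range, 2.86% were lower and 3.06% higher, or 2.43% and 3.39% without centring. Differences ran from -0.98 for Hist1h3c (4.43 and 1.87 RPKM) to 0.88 for Hist1h4i, with a median of -0.26, against -0.05 over all genes. The H1 genes went apart, with -0.97 for Hist1h1b and 0.71 for Hist1h1c. With a pseudocount of 0.1, 7 histone genes were lower by 2-fold. No test was run, since the values are 1 median per cell type, so this is no evidence that the genes were unchanged.

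**Figure D4:**
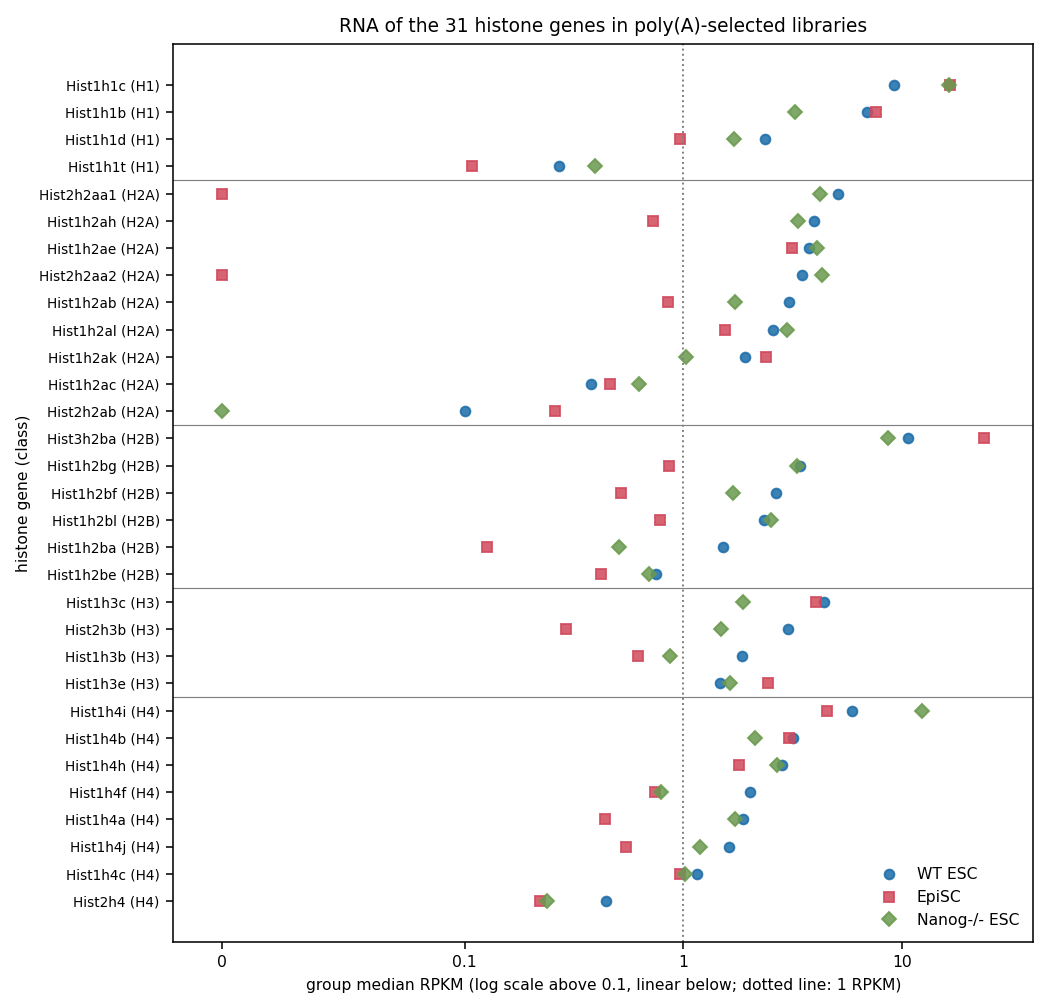
Group median RPKM (x axis, log above 0.1 and linear below) of the 31 histone genes (y axis, by class), with 1 symbol per cell type and a dotted line at 1 RPKM. In EpiSCs 20 of the genes lie left of the line, including Hist2h2aa1 and Hist2h2aa2 at 0, while Hist3h2ba and Hist1h1c lie furthest right.

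Sequence shared with other transcripts limits these values. In 13 of 31 genes at least 50% of the 50-base stretches of the annotated transcripts occur in other genes, with a median of 45.8%. Among the other 18 genes, 12 were lower by 2-fold in EpiSCs relative to the median, with 0 to 49.7% of their stretches shared. Of these, only Hist1h2ba, Hist1h2bg and Hist1h4a were also lower by 2-fold without centring. The other genes lower without centring, Hist1h2ab, Hist1h2ah, Hist1h2bf, Hist2h3b, Hist2h2aa1 and Hist2h2aa2, each share at least 50%. Hist1h1b shared none and Hist3h2ba shared 22.1%.

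Genes that act with the histone genes were measured from fixed lists. Of 21 factors of histone transcription and mRNA processing, 17 were in the table, at 7.05 to 302 RPKM, and relative to the median 1 differed by 2-fold in EpiSCs. Without centring 5 did, with Lsm10 (1.41), Cpsf2 (1.01), Sympk (1.25) and Ccne2 (1.31) higher and Ccne1 (-1.10) lower. Slbp, the stem-loop binding protein, stood at 61.2, 92.0 and 51.6 RPKM in WT ESCs, EpiSCs and Nanog-/- ESCs. Casp8ap2 (FLASH), a component of histone locus bodies, stood at 27.6, 38.9 and 27.2 RPKM. Ccne1, the cyclin E gene whose kinase acts at histone locus bodies, stood at 194, 90.04 and 302 RPKM, with a difference of -1.95 in EpiSCs. The median difference of the list was -0.20 in EpiSCs, or 0.66 without centring, and -0.03 in Nanog-/- ESCs, and none differed by 2-fold in the latter.

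Of 12 replication-independent histone genes, whose mRNAs carry poly(A) tails, 9 were in the table. H2afz, encoding the H2A variant of active and poised promoters, stood at 688, 194 and 603 RPKM, with a difference of -2.67 in EpiSCs, or -1.82 without centring. H2afy2, encoding a macroH2A, stood at 20.7, 106 and 34.0 RPKM, with a difference of 1.45 in EpiSCs. H3f3b, encoding the replacement histone H3.3, stood at 342, 689 and 434 RPKM, with a difference of 0.15 in EpiSCs, or 1.01 without centring. The other 6 were within 2-fold of WT ESCs, relative to the median, in both comparisons. H2afy stood just inside the limit in Nanog-/- ESCs, at 45.4 and 23.3 RPKM.

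All 4 histone chaperone genes in the table of 8 listed, among them Nasp at 292, 337 and 285 RPKM, and all 6 of 8 S-phase genes, among them Mcm2 at 298, 390 and 310 RPKM, were within 2-fold in both comparisons. Their median differences in EpiSCs were -0.48 and -0.53, or 0.38 and 0.33 without centring, whereas that of the histone genes was -0.46 without centring.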

How the data were processed

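PCHi-C lists and an RNA-seq table were used as deposited, and the 4 ChIP-seq samples were not used here. Per the study's methods, HindIII-digested libraries of 2 biological replicates per cell type were captured with promoter baits, filtered with HiCUP, scored with CHiCAGO and combined. The submitters' notes name Bowtie 1.1.0 and the GRCm38 (mm10) build. The lists the authors deposited give, per pair of fragments, the count of reads and the CHiCAGO score, none under 5. The depth of whole libraries is not given. The RNA libraries were made from total RNA with a poly(A)-selecting mRNA kit. The RNA table the authors deposited gives the median RPKM of each cell type. Trim Galore, TopHat and DESeq2 are named for it without versions. A column headed BT12 was taken as Nanog-/- from the name of the line. The table also holds log2 fold changes and p-values of the authors, which were not used.

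Where both fragments were baited and each listed the other, the listing with the higher score was kept. The reads of the 2 listings differed in 29, 13 and 1217 of 7324, 5593 and 7297 such pairs (WT ESC, EpiSC, Nanog-/- ESC). The 15741 rows of the RNA table gave 15646 genes once rows with the same name and values were merged and rows lacking a name or value were left out. Distances are between fragment midpoints. Shares have Wilson 95% intervals and reads exact Poisson 95% intervals. The upper share for 0 contacts is 3 divided by the number of contacts. Differences of RNA use log2(RPKM + 1). Stretches of 50 bases were compared on both strands, between GRCm38.p6 fragments and between GENCODE M21 transcripts. Promoter windows are those of RefSeq for GRCm38.p6, 32851 of 27025 genes.

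Named histone genes are the 10 with the highest RPKM, those that differ by at least 2-fold, and baits of the 10 highest-score, the 5 longest and all between-group pairs. Named partners are the 5 with the highest score per list and baits met by at least 2 histone baits, and some neighbours of these were chosen after their values were seen. Members and lists were chosen with earlier results of these data known. Alternatives were score, read, distance, grouping, pseudocount, centring and filter settings. Counting and fold steps were tested on simulated data. Python 3.11.15, numpy 2.4.6, pandas 2.3.3, scipy 1.17.1 and matplotlib 3.10.9 were used.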

Additional observations from a re-analysis of the deposited data

How the results depend on the processing

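No paired analysis was possible because each contact list and each RNA median combines all replicates and carries no replicate number, and for the same reason no replicate could be left out. Of the recomputed summary values, 92 stayed within 1.5 times of a count or within the 95% interval of a share or median, 31 moved and 0 reversed. Of 42 recomputed values of single genes, 0 reversed.

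Values are given for WT ESCs, EpiSCs and Nanog-/- ESCs in this order. At a score of at least 7, histone pairs were 38 and 34 in the WT ESC and EpiSC lists, contacts 124, 133 and 66, and pairs between groups 7 in EpiSCs and 1 in Nanog-/- ESCs. At 10 or more reads, histone pairs were 31, 25 and 16, contacts 125, 130 and 68, pairs between groups 1, 0 and 0, median distances 19.9 and 18.5 kb in WT ESCs and EpiSCs, and 71.0% of WT ESC pairs were kept in EpiSCs. This setting leaves out nearly all long contacts by its construction. Without pairs that share a 50-base stretch, a setting chosen after seeing the data, pairs between groups were 5, 7 and 1.

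Histone genes lower by 2-fold in Nanog-/- ESCs numbered 7 with a pseudocount of 0.1. Without centring, 9 were lower and 1 higher in EpiSCs, with a median difference of -0.46. Among genes with under 50% shared stretches, a setting chosen after seeing the data, 12 were lower in EpiSCs with centring, from fewer genes. At least 0.5 RPKM was reached by 21 genes in EpiSCs, and 5 RPKM by 5, 3 and 3 genes.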

Other observations

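Fragments without a bait also gathered contacts of several histone baits. A fragment of 182 bp within the annotated Hist1h2be gene (chr13:23591376-23591557) was contacted by 10 histone baits in EpiSCs, with up to 30 reads and a score of up to 13.31, among them Hist1h4j in group 1 at 1858 kb. The fragment chr13:23733996-23735336, which holds no annotated gene, was contacted by 5 histone baits in EpiSCs. Its contact with Hist1h4c at 36.0 kb had 36, 50 and 27 reads in WT ESCs, EpiSCs and Nanog-/- ESCs, with scores of 16.80, 24.46 and 23.88. The fragment chr13:22028744-22031509, beside group 2 and over Gm11292, was contacted in EpiSCs by 4 histone baits, among them Hist1h2ae, Hist1h4f and Hist1h4h across the long gap, with up to 4 reads, and in WT ESCs by Hist1h3e with 4 reads (score 8.65).

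The lone baits had no contact with another histone bait in any list. Hist1h2al had 14, 20 and 11 contacts in WT ESCs, EpiSCs and Nanog-/- ESCs. A fragment over S1pr3, a sphingosine phosphate receptor gene, 213 kb away (chr13:51411210-51418407), was its partner with the highest score in each list, with 11, 12 and 8 reads and scores of 12.85, 12.74 and 11.34. Hist3h2ba, the histone gene with the highest RPKM in WT ESCs and EpiSCs, had 3, 0 and 1 contacts, of which that with Rnf187 at 15.8 kb had 35 reads in WT ESCs and 26 in Nanog-/- ESCs. Hist1h2ba had 5, 6 and 2 contacts, the highest score being with Trim38 at 147 kb in WT ESCs (13 reads, score 8.28).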
